A study of Mus musculus with 6 samples.

Results

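Cells that swell release chloride and small organic solutes through the volume-regulated anion channel, which is built from proteins of the LRRC8 family. The genes of this family were followed in sorted hippocampal microglia. All 5 rows of the deposited count table with a symbol from Lrrc8a to Lrrc8e were taken, out of 11881 genes listed, and 4 of the 5 passed the filter on low counts that left 10832 genes for testing. The family was chosen with its levels in these libraries already known, above all the pattern of Lrrc8a over the libraries, so the levels and the genotype difference of the 5 genes are given as a description, with no test.

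Hippocampi of males aged 17 to 21 days after birth gave the cells, which were sorted as CD11b-positive with low CD45. There were 3 wild type mice (WT) and 3 mice with the genotype Mll5+/-, which have 1 intact copy of Mll5, a gene now called Kmt2e. Each library was taken as 1 mouse, since the labels number the animals separately. The labels give no strain, litter, sort date or treatment, nor which part of Mll5 is disrupted. Where replicates might share a litter or sort day, p-values measure only the spread between these 6 libraries.

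LRRC8A is the subunit that every working channel needs, and it assembles with one or more of LRRC8B, LRRC8C, LRRC8D and LRRC8E. The partner decides what the pore lets through. LRRC8D favours uncharged and larger solutes such as taurine, and LRRC8C and LRRC8E pass the cyclic dinucleotide cGAMP, an immune messenger. In microglia, swelling-activated anion currents are known as part of volume control and of changes in cell shape.

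The libraries held between 21075570 and 29730400 counts, and levels are given as CPM, the count relative to the library total as scaled by TMM. A count of 3 is worth 0.104 to 0.142 CPM, depending on the library. Kmt2e, on chromosome 5 from 23639439 to 23709233 (mm39), had 480, 378 and 688 CPM under the WT label and 648, 298 and 513 CPM under the Mll5+/- label. Its log2 fold change of -0.08 had a 95% interval from -0.80 to 0.63, which does not reach the value of -1 that 1 copy in place of a pair would give, so genotypes are given as labelled. The microglial marker Tmem119 had 197, 221 and 204 CPM under the WT label and 223, 232 and 222 CPM under the Mll5+/- label. These did not overlap, as held for 9.32% of all genes tested, and were higher under the Mll5+/- label. The 6 microglial markers together went the other way, again without overlap. They had between 6327 and 10465 CPM under the WT label and between 5167 and 5948 CPM under the Mll5+/- label. Summed astrocyte markers lay between 373 and 544 CPM against 264 and 549 CPM, and summed neuron markers, of which 2 of 7 were measured here, between 9.01 and 21.6 CPM against 9.59 and 34.7 CPM (labelled WT given before labelled Mll5+/-). Summed border-associated macrophage markers, of which 4 of 6 were measured here, did not overlap between genotypes, with 320.2, 327 and 251 CPM under the WT label against 413, 357 and 684 CPM. The part of these markers in the results below was not tested. In such sorted bulk samples, fewer cells of a type and less RNA per cell cannot be told apart.

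Lrrc8a lies on chromosome 2 from 30127727 to 30153802 (mm39). Lrrc8b, Lrrc8c and Lrrc8d lie in a row on chromosome 5, from 105563641 to 105637940, from 105667254 to 105760884 and from 105847835 to 105963081. Of the genes listed, none lies in the 29314 bases between Lrrc8b and Lrrc8c or in the 86951 bases between Lrrc8c and Lrrc8d. Lrrc8e lies on chromosome 8 from 4276827 to 4287470. Kmt2e shares chromosome 5 with the 3 clustered genes.

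The start regions of Lrrc8a and Lrrc8c are shown, since Lrrc8a had the widest range of levels of the 5 genes and Lrrc8c the lowest log2 fold change of the 4 that were tested. They are the 250 bases before the transcript start in RefSeq (GRCm38.p6, plus strand), at chr2:30237519-30237768 and chr5:105519221-105519470. This build differs from that of the counts, and its coordinates are used for these sequences alone. Capitals mark letters that match a searched motif on either strand.
Lrrc8a: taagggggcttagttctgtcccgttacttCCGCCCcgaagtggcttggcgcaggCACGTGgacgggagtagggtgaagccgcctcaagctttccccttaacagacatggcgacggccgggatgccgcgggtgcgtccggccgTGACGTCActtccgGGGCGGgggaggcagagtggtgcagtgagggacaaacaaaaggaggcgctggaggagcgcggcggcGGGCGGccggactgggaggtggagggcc
Lrrc8c: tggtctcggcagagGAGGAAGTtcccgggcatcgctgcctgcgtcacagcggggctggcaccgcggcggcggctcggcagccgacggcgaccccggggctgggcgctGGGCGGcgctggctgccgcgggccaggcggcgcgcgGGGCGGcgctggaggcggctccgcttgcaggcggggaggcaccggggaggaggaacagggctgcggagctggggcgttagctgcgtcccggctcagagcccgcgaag
The search covered the cAMP response element (TGACGTCA), the GC box (GGGCGG), the CCAAT box (CCAAT), the TATA box (TATAAA), the E-box (CACGTG) and a site for the myeloid factor PU.1 (GAGGAAGT), with their opposite strands. None of the searched motifs overlaps another in the sequences printed. The Lrrc8a window holds 1 cAMP response element, 1 E-box and 3 GC boxes. A cAMP response element is found in 1.55% and an E-box in 6.02% of 32817 windows of the same length. Both motifs contain the letters CG, in which the printed windows are rich. The Lrrc8a window is 68% G or C with 25 CG pairs, and the Lrrc8c window 78.4% with 35. Over all windows the medians are 52.4% and 6, and no share was taken among windows of like make-up. The Lrrc8c window holds 1 PU.1 site, found in 2.44% of windows, and 2 GC boxes, where 32.7% of windows have at least 1. None of the 5 genes has a TATA box in its windows, a motif held by 12.4% of windows. All these are matches of letters and not measured binding.

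Lrrc8a, the obligatory subunit, was either among the most abundant transcripts or nearly absent. It took 43, 50914 and 59413 counts under the WT label and 47375, 5 and 38824 counts under the Mll5+/- label. These are 1.798, 1959 and 2061 CPM, and 1869, 0.176 and 1835 CPM. WT replicates 2 and 3 and Mll5+/- replicates 1 and 3 thus sat within a narrow band, while WT replicate 1 and Mll5+/- replicate 2 had almost no Lrrc8a, and each genotype held libraries of both kinds. By rank among the 11881 listed genes, Lrrc8a stood at places 50, 53, 52 and 59 in the 4 libraries of the band and at places 9439 and 10831 in WT replicate 1 and Mll5+/- replicate 2.

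**Figure D1:**
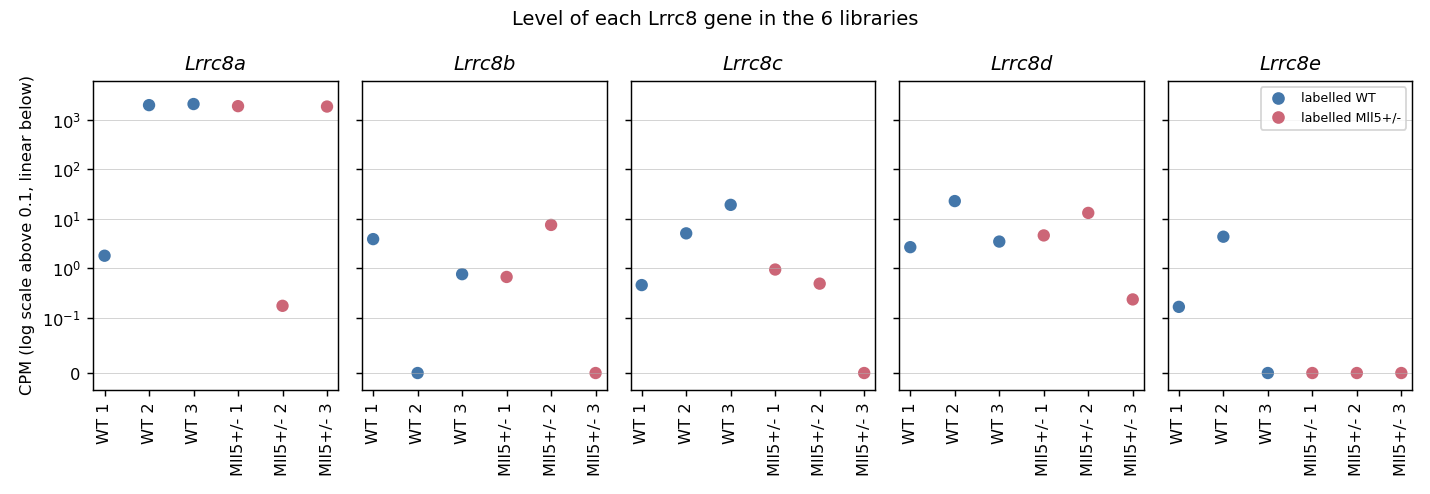
CPM of each Lrrc8 gene (y axis, logarithmic above 0.1 and linear below) in the 6 libraries (x axis, genotype and replicate), 1 point per library, with blue for those labelled WT and red for those labelled Mll5+/-. Lrrc8a sits between 1835 and 2061 CPM in 4 libraries and at 1.798 and 0.176 CPM in WT replicate 1 and Mll5+/- replicate 2, while no other Lrrc8 gene exceeds 22.7 CPM.

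The genotype means of Lrrc8a were close and their spread was wide. The libraries labelled WT averaged 1341 ± 1161 CPM and those labelled Mll5+/- averaged 1235 ± 1069 CPM (SD, n = 3 each). The log2 fold change, labelled Mll5+/- minus labelled WT, was -0.12 (SE 2.89), with a 95% interval from -7.85 to 7.62. An interval this wide leaves even large differences in either direction undetermined at this number of mice. The sign of the fold change turned when single libraries were left out, from -0.72 without WT replicate 1 to 0.46 without Mll5+/- replicate 2.

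Part of the Lrrc8a transcript is shared with another gene model, which bears on what these counts hold. In GENCODE M21 (GRCm38), the coding gene model Gm28035 lies on the same strand and joins exons of Lrrc8a to those of Phyhd1, the next gene along the chromosome. Of the genes listed with counts, none overlaps Lrrc8a in the deposited coordinates, and Gm28035 was not analysed here. Of the 4306 different words of 50 bases in Lrrc8a transcripts, 65.2% also occur in Gm28035. A further 1.02% occur on the opposite strand in 1700084E18Rik, a gene that lies there. Reads from such shared stretches cannot be assigned to 1 gene with certainty, and no source used here states whether the counting used strand. The other members had no such partner model on their strand. None of the words of Lrrc8b, 0.183% of those of Lrrc8c, 4.92% of those of Lrrc8d and 1.84% of those of Lrrc8e occur in other genes.

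The genes beside Lrrc8a did not follow its split. Phyhd1, which begins 2413 bases after Lrrc8a ends and encodes a dioxygenase, had 352, 428 and 207 CPM under the WT label and 276, 153 and 238 CPM under the Mll5+/- label. Its level in WT replicate 1 lay within the range of the other libraries, and that in Mll5+/- replicate 2 was the lowest of the 6. Kyat1, an enzyme gene of kynurenine metabolism that ends 31868 bases before Lrrc8a, had 5.48, 0.154 and 0.347 CPM and 1.62, 1.02 and 4.02 CPM.

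The partner subunits stayed far below the high level of Lrrc8a in every library. Their highest places among the 11881 listed genes were 4681 for Lrrc8d in WT replicate 2 and 5086 for Lrrc8c in WT replicate 3. Lrrc8d, the partner linked to taurine release, had 2.68, 22.7 and 3.47 CPM under the WT label and 4.62, 13.1 and 0.236 CPM under the Mll5+/- label. Its highest levels were in WT replicate 2 and Mll5+/- replicate 2 and its lowest, 5 counts, in Mll5+/- replicate 3, so the genotypes overlapped. The log2 fold change was -0.68 (SE 1.30), with a 95% interval from -3.64 to 2.28. Without WT replicate 2 alone it was 0.95, the opposite sign.

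Lrrc8c, the partner that has been studied in fat cells and T cells, had the largest distance between genotype means on the log2 scale. It had 0.460, 5.08 and 19.1 CPM under the WT label and 0.947, 0.492 and 0 CPM under the Mll5+/- label. WT replicates 2 and 3 stood above all other libraries, but WT replicate 1 lay within the range of those labelled Mll5+/-. The count of 0 in Mll5+/- replicate 3 allows up to 0.142 CPM, as far as counting error goes. The log2 fold change was -4.08 (SE 1.83), with a 95% interval from -8.24 to 0.08. It was negative without each library in turn, and without WT replicate 3 it was -2.52.

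Lrrc8b, the partner whose role in the channel is least settled, had 3.89, 0 and 0.763 CPM under the WT label and 0.671, 7.51 and 0 CPM under the Mll5+/- label. Its 2 highest values fell in WT replicate 1 and Mll5+/- replicate 2, the libraries in which Lrrc8a was nearly absent. The 0 counts allow up to 0.115 CPM in WT replicate 2 and up to 0.142 CPM in Mll5+/- replicate 3. The log2 fold change was 0.82 (SE 2.32), with a 95% interval from -4.44 to 6.07, and it was -2.20 without Mll5+/- replicate 2 and 2.80 without WT replicate 1.

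Lrrc8e was the member that did not pass the filter on low counts. Its counts were 4, 113 and 0 under the WT label, or 0.167, 4.35 and 0 CPM, and 0 counts in all 3 libraries labelled Mll5+/-. WT replicate 2 held nearly all of its counts. The libraries at 0 allow between 0.104 and 0.142 CPM, and no fold change is given.

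No member separated the genotypes. The levels of 0 of the 5 genes, and of 0 of the 4 that were tested, were free of overlap between genotypes, where 9.32% of all 10832 tested genes were (4.68% higher and 4.64% lower in the libraries labelled Mll5+/-). These counts come from the levels that the choice of the family drew on, and nothing is read from them.

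**Figure D2:**
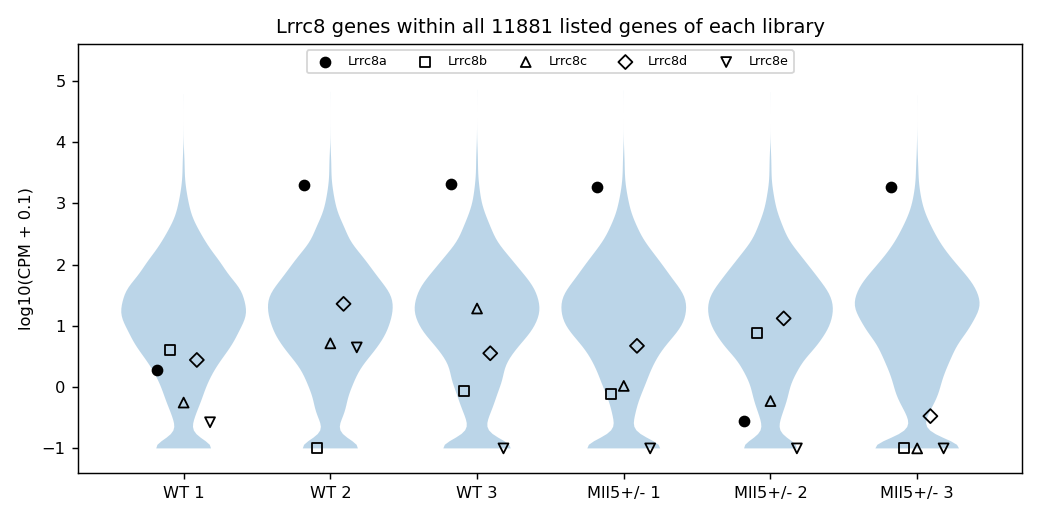
Distribution of log10(CPM + 0.1) over all 11881 listed genes (shaded shape, y axis) in each library (x axis), with the 5 Lrrc8 genes as symbols. The filled circle of Lrrc8a sits near the top of the distribution in 4 libraries and in the lower part in WT replicate 1 and Mll5+/- replicate 2. The open symbols of the partners lie mostly around or below the middle, with Lrrc8d in WT replicate 2 and Lrrc8c in WT replicate 3 above it.

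Set per length, so that genes can be compared, Lrrc8a exceeded its partners by a wide margin in 4 libraries and not in the other 2. Levels were divided by the exon length of each gene in GENCODE M21, which is 4308 bases for Lrrc8a, 6726 for Lrrc8b, 7654 for Lrrc8c and 12573 for Lrrc8d. On this scale Lrrc8a had 455 and 479 CPM per kilobase in WT replicates 2 and 3 and 434 and 426 in Mll5+/- replicates 1 and 3. These 3 partners together had 2.47, 2.88, 0.591 and 0.0188 CPM per kilobase in the same libraries. Lrrc8e, which did not pass the filter, was left out of the partner sum. It had 1.05 CPM per kilobase in WT replicate 2, above Lrrc8c with 0.664, and would lower the ratio of that library. In WT replicate 1 Lrrc8a had 0.417 against 0.851 CPM per kilobase for the partners, and in Mll5+/- replicate 2 it had 0.0408 against 2.23. Lrrc8a was thus below the sum of its partners in these 2 libraries. The ratio of Lrrc8a to its partners on this scale was 0.490, 184 and 166 under the WT label and 735, 0.0183 and 22662 under the Mll5+/- label, where the last value rests on 5 counts of the partners.

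The make-up of the partners also differed from library to library. Of the counts of Lrrc8b, Lrrc8c and Lrrc8d together, Lrrc8d took the largest share in 4 libraries, from 62.1% in Mll5+/- replicate 2 through 74.1% in Mll5+/- replicate 1 and 81.7% in WT replicate 2 to 100% of 5 counts in Mll5+/- replicate 3. Lrrc8c led in WT replicate 3 with 81.8% and Lrrc8b in WT replicate 1 with 55.4%. The 3 libraries labelled WT thus had 3 different leading partners. Shares of counts favour Lrrc8d, the longest of the 3. Per length, Lrrc8b with 1.12 CPM per kilobase stood above Lrrc8d with 1.04 in Mll5+/- replicate 2, and the leading partner was the same in the other 5 libraries. Summed, these 3 partners, without Lrrc8e, had 7.02, 27.8 and 23.3 CPM under the WT label and 6.23, 21.1 and 0.236 CPM under the Mll5+/- label.

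A search over all tested genes showed how common the pattern of Lrrc8a is. A gene was counted as having a 2-level pattern where log2(CPM + 1), sorted over the 6 libraries, had its largest gap between neighbours at 2 or more, with at least 2 libraries on each side and neither side wider than the gap. This held for 253 of 10832 genes, or 2.34%, and for 2.91% of the 1720 genes with a mean of at least 100 CPM. Of the Lrrc8 genes, Lrrc8a alone met the rule, as its choice implies. Its gap of 9.36 on the log2 scale was the largest of the 253, whose median was 2.54. The genotype labels gave the split in 3 of the 253 genes.

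**Figure D3:**
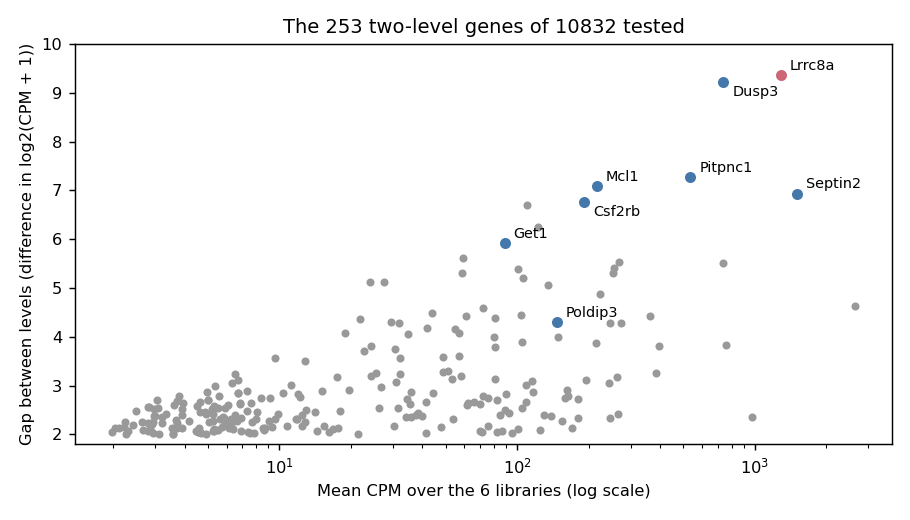
Gap between the levels of each 2-level gene, as a difference in log2(CPM + 1) (y axis), against its mean CPM over the 6 libraries (x axis, log scale), 1 point per gene. Lrrc8a (red) stands at the top with a gap of 9.36, next to Dusp3 with 9.23.

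Besides Lrrc8a, 4 genes of the 253 had the same high and low libraries, and 1 had them exchanged, together with Lrrc8a 0.0554% of the genes tested. Poldip3, which encodes a protein bound to a DNA polymerase subunit, had 4.31, 222 and 238 CPM under the WT label and 195, 8.95 and 212 CPM under the Mll5+/- label. Rcsd1, a gene for an actin-capping partner protein, had 11.04, 82.5 and 68.9 CPM and 96.4, 6.78 and 58.5 CPM. The other genes with this split were Cd72, an immune cell receptor gene with at most 11.6 CPM, and 0610040J01Rik with at most 30.8 CPM.

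Get1, part of the machinery that inserts tail-anchored proteins into the membrane of the endoplasmic reticulum, was the mirror image. It had 255, 3.23 and 1.32 CPM under the WT label and 0.276, 272 and 0.709 CPM under the Mll5+/- label. WT replicate 1 and Mll5+/- replicate 2, in which Lrrc8a was nearly absent, were the libraries with high Get1. Get1 lies on chromosome 16, and Lrrc8a on chromosome 2.

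Genes were also ranked by how closely log2(CPM + 1) followed Lrrc8a over the 6 libraries. The ranking covered 6684 named genes with a mean of at least 10 CPM. The highest Pearson correlations were those of Kbtbd3 (0.99), Nek7 (0.99), Nme2 (0.99), Mib2 (0.99) and Rcsd1 (0.99). They rest on 6 points that share library and depth, with WT replicate 1 and Mll5+/- replicate 2 at one end, and are descriptions. Nek7, a kinase that the NLRP3 inflammasome needs, had 109.9, 504 and 525 CPM under the WT label and 424, 103 and 610.0 CPM under the Mll5+/- label. It was low in the same libraries as Lrrc8a, but still above 100 CPM. Kbtbd3 ranged from 31.6 to 61.2 CPM, Nme2, a nucleoside diphosphate kinase gene, from 6.86 to 18.4 CPM and Mib2, a ubiquitin ligase gene, from 4.74 to 18.6 CPM.

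The lowest correlations with Lrrc8a were those of Get1 (-0.98), Lrp5 (-0.97), Orai1 (-0.97), Ypel5 (-0.96) and Mapk9 (-0.95). Lrp5, a Wnt co-receptor gene, had 25.0, 8.62 and 9.40 CPM under the WT label and 6.75, 22.9 and 8.84 CPM under the Mll5+/- label. Orai1, the pore subunit of store-operated calcium entry, ranged only from 92.9 to 123 CPM, so that a high correlation did not need a large change of level. Ypel5 ranged from 23.4 to 129 CPM and Mapk9, a stress-activated kinase gene, from 15.6 to 32.8 CPM.

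**Figure D4:**
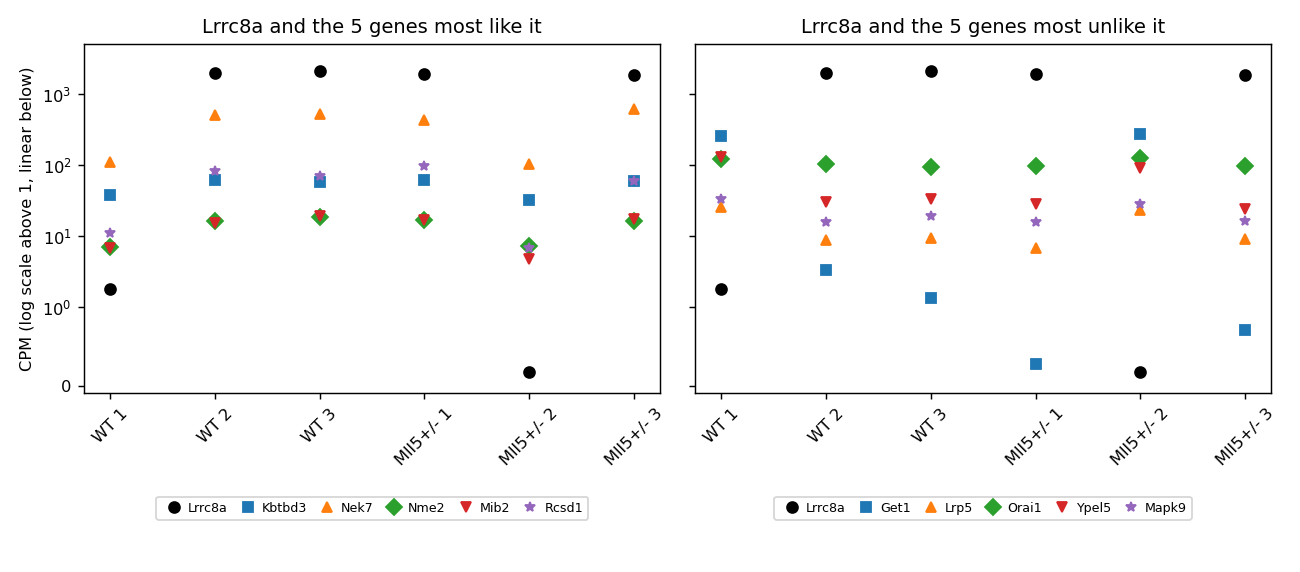
CPM (y axis, logarithmic above 1 and linear below) in the 6 libraries (x axis) of Lrrc8a with the 5 genes of highest correlation (left) and of lowest correlation (right), 1 symbol per gene and library. Nek7 drops to 109.9 and 103 CPM where Lrrc8a is nearly absent, and Get1 is at 255 and 272 CPM there and at most 3.23 CPM elsewhere.

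Depth, mitochondrial share and markers of other cells in WT replicate 1 and Mll5+/- replicate 2 were as follows. They held 23884734 and 28053173 counts, within the range of the other libraries. Mitochondrially encoded genes took 2.90% of counts in WT replicate 1 and 1.88% in Mll5+/- replicate 2, the lowest share of the 6, against 2.09% to 3.56% in the other 4. Astrocyte markers, 5 of 7 measured here, summed to 461 and 549 CPM there, the latter the highest of the 6, where the other 4 libraries ran from 264 to 544 CPM. Oligodendrocyte markers, 5 of 6 measured here, summed to 143 CPM, the highest of the 6, and 48.3 CPM, against 35.3 to 90.9 CPM in the others. Border-associated macrophage markers, 4 of 6 measured here, summed to 320.2 and 357 CPM, within the range from 251 to 684 CPM of the others. The part of these measures in the split of Lrrc8a was not tested.

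The genes of highest correlation with the partners were others than those of Lrrc8a. Lrrc8b was followed by Golga1 and Efcab14 (both r = 0.97). Golga1, a gene for a Golgi membrane protein, had 60.8, 42.8 and 45.8 CPM under the WT label and 51.2, 65.5 and 43.1 CPM under the Mll5+/- label, highest in WT replicate 1 and Mll5+/- replicate 2 as Lrrc8b was. Lrrc8c was followed by Stt3b (r = 0.995), Pou2f2 and Kdelr2. Pou2f2, a transcription factor of immune cells, had 30.2, 136 and 268 CPM under the WT label and 31.6, 31.7 and 21.0 CPM under the Mll5+/- label, high in WT replicates 2 and 3 as Lrrc8c was. Lrrc8d was followed by Phgdh (r = 0.98), the enzyme that opens serine synthesis, which ranged from 92.1 to 153 CPM, and by C2cd2 and Pik3cg (both 0.97). All of these are among the highest of 6684 genes ranked over 6 libraries, where high values arise easily, and they are descriptions.

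The genes beside the clustered partners and Lrrc8e were looked at as well. Zfp326, a zinc finger gene 61350 bases after Lrrc8d, had 51.9, 82.3 and 89.97 CPM under the WT label and 52.1, 116 and 47.0 CPM under the Mll5+/- label, far above Lrrc8d in every library. Map2k7, a kinase gene 1270 bases after Lrrc8e, had 1.05, 0.654 and 50.5 CPM and 0.395, 2.95 and 81.2 CPM. It was high in WT replicate 3 and Mll5+/- replicate 3. Lrrc8e had 0 counts there, but also in Mll5+/- replicates 1 and 2, where Map2k7 was low. Gbp6, before Lrrc8b, did not pass the filter on low counts. It had 71 and 6 counts in Mll5+/- replicates 2 and 3 and 0 in the other libraries.

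Genotypes were compared on 5 lists of further genes, 4 chosen by a function around the channel and 1 by name and protein fold. Across all 10832 genes, edgeR's quasi-likelihood test called 0 at an adjusted p of 0.05 (0%), with 312 (2.88%) under an unadjusted p of 0.05, of which 147 (1.36%) were higher and 165 (1.52%) lower. DESeq2 called 29 of 11377 genes (0.255%) with 565 under an unadjusted p of 0.05, and limma-voom called 0 with 467. The median log2 fold change of all genes tested was 0.02. No member of the 5 lists passed the adjusted threshold in edgeR.

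None of the other anion channel genes had a 2-level pattern, where 2.34% of all genes tested did, so nothing is read from this count. Of 17 members, all tested, 12 had positive and 5 negative log2 fold changes, with a median of 0.26, and 0 had an unadjusted p under 0.05 in edgeR (1 in DESeq2 and 1 in limma-voom). Clcn4, an endosomal chloride-proton exchanger gene, had 207 ± 34.9 CPM under the WT label and 144 ± 45.8 CPM under the Mll5+/- label (SD, n = 3 each), a log2 fold change of -0.53 (SE 0.271). Its relative Clcn5 had 140 ± 9.83 and 128 ± 31.0 CPM (SD, n = 3 each). Clcn3, long discussed as a volume-sensitive channel, had 29.4, 60.6 and 17.4 CPM under the WT label and 166, 9.87 and 190 CPM under the Mll5+/- label, so the genotypes overlapped through Mll5+/- replicate 2. Ano6, a calcium-activated scramblase and channel gene, had 163 ± 52.0 and 141 ± 91.2 CPM, and Ttyh2, of the tweety family, had 181 ± 44.7 and 220 ± 23.4 CPM (SD, n = 3 each).

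Genes of volume sensing and of cation-chloride cotransport, which load or unload cells with salt as the channel does, held 2 of 20 tested members with an unadjusted p under 0.05 in edgeR, both higher in the libraries labelled Mll5+/-. They were Slc12a4 and Slc12a9. Slc12a4, the potassium-chloride cotransporter KCC1, had 2.55, 2.58 and 0.104 CPM under the WT label and 14.6, 10.5 and 10.7 CPM under the Mll5+/- label, with no overlap. The change on the log2 scale was 2.77 (SE 1.12, edgeR unadjusted p = 0.0351, adjusted p = 0.9995). Slc12a9, an orphan relative of these cotransporters, had 90.5, 78.4 and 68.7 CPM and 115, 134 and 106 CPM, again without overlap, and differed by 0.58 on the log2 scale (SE 0.242, edgeR unadjusted p = 0.0411, adjusted p = 0.9995). Among all genes tested, 9.32% were free of overlap (4.68% higher), so the lack of overlap is not read as a trait of this list. The summed markers of border-associated macrophages were likewise higher without overlap under the Mll5+/- label (357 to 684 CPM against 251 to 327 CPM), those of microglia were lower without overlap, and their part in both differences was not tested. Over the left-out libraries, the number of members under an unadjusted p of 0.05 ran from 0 to 2, with 0 without WT replicate 2, without Mll5+/- replicate 1 and without Mll5+/- replicate 2. The median of the list was 0.04, or -0.081 without WT replicate 3 and 0.26 without Mll5+/- replicate 1.

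The 4 most abundant members of that list overlapped between genotypes. Wnk1, the chloride-sensing kinase that heads the cotransporter cascade, had 869 ± 114 and 816 ± 126 CPM (SD, n = 3 each). Slc12a2, the sodium-potassium-chloride cotransporter NKCC1, had 593 ± 101 and 520.1 ± 63.7 CPM, and Slc5a3, which takes up the osmolyte myo-inositol, had 357 ± 73.1 and 262 ± 73.5 CPM (SD, n = 3 each, labelled WT given before labelled Mll5+/-). Trpm7, a swelling-sensitive cation channel with a kinase domain, had 349 ± 126 and 355 ± 16.9 CPM (SD, n = 3 each).

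Potassium channels carry the cation that leaves with chloride when a swollen cell shrinks back. Of 8 members tested, 4 had positive and 4 negative log2 fold changes, with a median of -0.01, and 0 had an unadjusted p under 0.05 in edgeR. The median moved to between -0.506 and -0.053 when single libraries were left out, lowest without Mll5+/- replicate 3, and to -0.40 in limma-voom. Without Mll5+/- replicate 1 or replicate 3, 1 member had an unadjusted p under 0.05 in edgeR. Kcnk6, the most abundant, had 265 ± 43.8 and 221 ± 50.8 CPM, and Kcnk13, the channel THIK-1 that sets the resting potential of microglia, had 18.3 ± 6.77 and 17.6 ± 6.81 CPM (SD, n = 3 each). Kcnj2, the inward rectifier Kir2.1, had 50.3, 18.2 and 19.4 CPM under the WT label and 20.7, 9.76 and 10.9 CPM under the Mll5+/- label, overlapping, with a log2 fold change of -1.09 (SE 0.567). Hvcn1, the proton channel of phagocytes, had 39.6 ± 9.07 and 43.4 ± 20.1 CPM (SD, n = 3 each).

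The next list held the route that makes and reads cGAMP, a cargo of LRRC8C and LRRC8E channels. Of 11 members tested, 0 had an unadjusted p under 0.05 in edgeR, and the median log2 fold change was 0.12, or -0.39 without Mll5+/- replicate 2. Cgas, the enzyme that makes cGAMP from sensing DNA, had 380 ± 33.9 and 420.2 ± 27.9 CPM, and Tbk1, the kinase downstream, had 173 ± 42.4 and 184 ± 47.9 CPM (SD, n = 3 each). Sting1, the receptor of cGAMP, had 52.9, 86.8 and 32.9 CPM under the WT label and 19.8, 75.5 and 17.8 CPM under the Mll5+/- label. Abcc1, an exporter of cGAMP, had 119 ± 28.1 and 129 ± 4.59 CPM (SD, n = 3 each).

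Other genes named for leucine-rich repeats, the fold that forms the inner domain of the LRRC8 proteins, gave a further comparison. Of 14 tested, 7 had positive and 7 negative log2 fold changes, with a median of 0.03 (0.28 without WT replicate 2 and -0.17 without WT replicate 3), and 0 had an unadjusted p under 0.05 in edgeR (1 in DESeq2). Lrrc58 had 662 ± 125 and 644 ± 57.8 CPM and Lrrc3 had 282 ± 116 and 330 ± 1.23 CPM (SD, n = 3 each). Nrros, which holds latent TGF-beta on microglia, had 176 ± 78.7 and 127 ± 61.5 CPM (SD, n = 3 each). None of the 14 had a 2-level pattern, where 2.34% of all genes tested did.

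**Figure D5:**
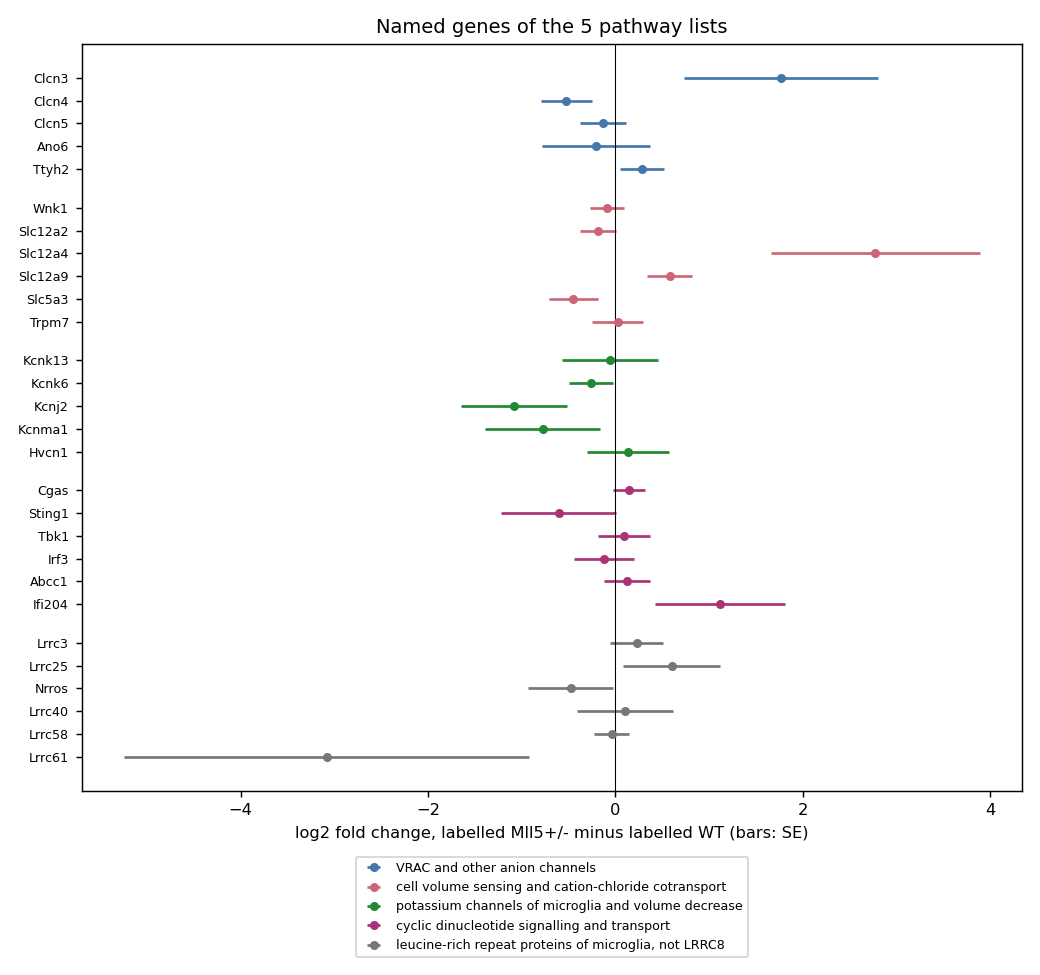
Log2 fold change, labelled Mll5+/- minus labelled WT (x axis, point with SE as bar), of the named genes on each of the 5 lists (y axis, colour by list). Slc12a4 at 2.77 and Slc12a9 at 0.58 are the members under an unadjusted p of 0.05, and none passed the adjusted threshold in edgeR.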

How the data were processed

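Per the labels' protocols, TRIzol was used to extract the RNA, the SMART-seq method to amplify cDNA, and a transposase kit to build libraries from it. What the authors deposited is 1 table of gene counts, whole numbers by symbol over 6 libraries, with mm39 coordinates. The submitters' processing notes name FastQC, STAR, StringTie and DESeq2. No source used here gives their versions, how reads were counted or whether strand was used. Reads were amplified and carry no molecular identifiers, so they are not independent molecules, and the limits given for counts of 0 cover counting error only.

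Genes were kept with filterByExpr (minimum count 10, minimum total count 15), library sizes were scaled by TMM, and labelled Mll5+/- was set against labelled WT with the robust quasi-likelihood test of edgeR (edgeR 4.0.16, R 4.3.3) and Benjamini-Hochberg adjustment over 10832 genes at a threshold of 0.05. SEs and 95% intervals were derived from the coefficient and the F value. The scripts were tested on simulated data. Limma-voom with sample weights (limma 3.58.1) and DESeq2 1.42.0 served as alternatives, with other scalings and filters and leaving out each library. The members, lists and alternatives were chosen with earlier results of these data known. Named genes are the members, Kmt2e, the 4 most abundant genes and the 2 of smallest p per list, neighbours, and the genes of highest and lowest correlation. Tmem119 and the 2-level genes were named after their values were seen. Exon lengths and shared words come from GENCODE M21, start regions from RefSeq (GRCm38.p6), where all 5 members matched by symbol. Some genes that this rule or a list would name are not reported here.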

Additional observations from a re-analysis of the deposited data

How the results depend on the processing

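No paired analysis was possible because the labels number the mice individually and share no number between genotypes. With 3 libraries per genotype and values that swing between libraries, single libraries set the fold changes of the members. Over the left-out libraries, the log2 fold change of Lrrc8a ran from -0.72 to 0.46, that of Lrrc8b from -2.20 to 2.80, that of Lrrc8c from -5.03 to -2.52 and that of Lrrc8d from -1.98 to 0.95. The other settings kept the sign of all 4, with Lrrc8a at -1.90 and Lrrc8b at 1.98 in limma-voom. The stricter filter removed Lrrc8b and Lrrc8c, so it gives no value for them. DESeq2 called 29 genes where edgeR called 0, and the left-out libraries gave from 0 to 2 calls.

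In the 5 lists, the number under an unadjusted p of 0.05 ran from 0 to 1 over the left-out libraries for anion channels, from 0 to 2 for volume and cotransport, from 0 to 1 for potassium channels, from 0 to 1 for the cyclic dinucleotide route and from 0 to 2 for leucine-rich repeat genes. It was 1 for anion channels with DESeq2 and with limma-voom, and 1 for leucine-rich repeat genes with DESeq2 and without the low-count filter. The medians ran over the left-out libraries from 0.11 to 0.34 for anion channels, from -0.081 to 0.26 for volume and cotransport, from -0.506 to -0.053 for potassium channels, from -0.39 to 0.25 for the cyclic dinucleotide route and from -0.17 to 0.28 for leucine-rich repeat genes. With limma-voom the median of the potassium channels was -0.40. The cause of these shifts was not tested.

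The number of 2-level genes follows its definition. It was 574 with a smallest gap of 1.5, 74 with a gap of 3, 456 with a pseudocount of 0.5 CPM and 114 with a pseudocount of 4 CPM, against 253. Of these, 22, 3, 14 and 5 shared the split of Lrrc8a in either direction, with Lrrc8a among them. The median over libraries of the log2 ratio of Lrrc8a to its partners, 6.30 in counts, ran from 6.14 to 6.47 over the left-out libraries. With 4 of 6 libraries high, such a median stays among the high ones when 1 is left out, so this range shows no stability. With 1 count added and a single partner, it was 11.3 for Lrrc8b, 7.67 for Lrrc8c and 7.54 for Lrrc8d.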

Other observations

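The genes with the next largest gaps after Lrrc8a had other libraries at the low level. Dusp3, a phosphatase gene with a gap of 9.23 on the log2 scale, had 1014, 1117 and 0.694 CPM under the WT label and 1096, 0.105 and 1187 CPM under the Mll5+/- label, so it was nearly absent from WT replicate 3 and, as Lrrc8a was, from Mll5+/- replicate 2. The next 4 had gaps from 6.77 to 7.27. Pitpnc1, a lipid transfer protein gene, had 1122, 5.66 and 1.04 CPM and 2.72, 1050 and 1026 CPM. Mcl1, a survival factor of the BCL2 family, had 324, 1.001 and 320.1 CPM and 382, 269.9 and 0.803 CPM. Septin2 had 2725, 3054 and 13.7 CPM and 16.4, 3205 and 21.3 CPM, and Csf2rb, a cytokine receptor chain, had 2.17, 344 and 0.486 CPM and 357, 446 and 0.803 CPM. Each library was at the high level in between 124 and 143 of the 253 genes.

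A coding gene model that overlaps another on the same strand, as Gm28035 overlaps Lrrc8a, was found in GENCODE M21 for 22 of the 251 matched genes with a 2-level pattern (8.76%) and for 657 of all 10743 matched genes that were tested (6.12%). Among the 19 matched 2-level genes with a gap of at least 5, it was found for 2 (10.5%), Lrrc8a among them. No such overlap was found for Get1 or Poldip3. Of the 5 genes of highest correlation with Lrrc8a, Nme2 had one, with Gm20390. These shares are a description without a test.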
